A study of Rattus norvegicus with 5 samples.

Results

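The cytosolic chaperonin CCT (also called TRiC) was described by all gene probes of the array whose annotated gene is a subunit of the complex, *Tcp1* or *Cct2* to *Cct8*. A gene probe is a probe set, a group of short oligonucleotides that gives 1 signal for 1 transcript. There are 9 such gene probes for 8 genes among the 15866 gene probes without the array controls: 1 for each subunit and a second one for *Cct6a*. All 9 were kept by the filter on weak signals, which left 7933 gene probes. The testis paralog *Cct6b* was not analysed here.

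The data come from the small intestine of male Wistar rats that were 6 weeks old at the start and received a reduced amount of an otherwise common powdered diet for 1 month, at 5, 10, 20 or 30% calorie restriction (CR), or the full recorded intake (control). All rats were dissected after a 16 h fast. The RNA of 5 rats was pooled for each of the 5 groups, and each pool went onto 1 Affymetrix rat 230 array, which leaves every diet without a replicate and hides the spread between rats. The values are MAS5 signals, a brightness on a linear scale that was set to the same trimmed mean on every array. Signals of different gene probes cannot be ranked against each other, because each probe binds with its own strength.

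CCT is a pair of stacked rings, each built from 8 different subunits in a fixed order. An unfolded protein enters the cavity, ATP closes a built-in lid over it, and the protein folds inside. Actin and tubulin, which form the microvilli and the tracks of an enterocyte, depend on the complex, and so do many proteins with WD repeats. From work in yeast, the subunits with the stronger ATP binding (Cct2, Cct4, Cct5 and Cct7) lie on one side of the ring, and those with the weaker binding (Tcp1, Cct3, Cct6 and Cct8) on the other.

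The 4 promoters shown are of subunits whose signals lay below the control on every CR array, as did 20.6% of all gene probes. This choice rests on the sign alone and changes with the scaling, to 5 gene probes after quantile normalization and 3 after median centring. A link between the promoters and that sign was not tested. Each run is the 150 bases before a transcription start in RefSeq (build GRCr8), 5′ to 3′ on the strand of the gene. GC boxes and CCAAT boxes are in capitals. The start used for *Cct2* lies inside the annotated gene, which reaches chr7:54591428, so the end of its run overlaps the gene.
Tcp1, chr1:50384528-50384677, minus strand: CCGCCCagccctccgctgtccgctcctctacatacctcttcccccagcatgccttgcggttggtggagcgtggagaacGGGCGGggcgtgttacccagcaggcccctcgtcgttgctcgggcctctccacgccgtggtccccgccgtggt
Cct2, chr7:54591406-54591555, minus strand: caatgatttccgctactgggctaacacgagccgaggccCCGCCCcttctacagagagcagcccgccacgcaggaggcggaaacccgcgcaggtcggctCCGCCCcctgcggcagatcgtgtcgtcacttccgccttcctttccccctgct
Cct3, chr2:176063379-176063528, plus strand: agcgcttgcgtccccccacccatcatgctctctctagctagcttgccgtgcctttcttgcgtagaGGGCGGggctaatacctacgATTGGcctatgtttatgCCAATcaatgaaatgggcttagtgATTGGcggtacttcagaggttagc
Cct7, chr4:119546580-119546729, plus strand: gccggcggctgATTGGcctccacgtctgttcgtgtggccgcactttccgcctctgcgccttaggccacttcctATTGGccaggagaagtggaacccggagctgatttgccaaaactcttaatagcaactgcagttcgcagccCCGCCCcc

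All 8 subunit genes matched the RefSeq promoter table, which gives 250 bases before and 50 after each start, and each motif was searched on both strands. The GC box GGGCGG was found for 6 of the 8 subunits, *Tcp1*, *Cct2*, *Cct3*, *Cct6a*, *Cct7* and *Cct8*, and in 64.8% of the 5681 promoters of genes with a kept gene probe (33.1% of all 33469 promoters). The CCAAT box was found for 5, *Cct3*, *Cct5*, *Cct6a*, *Cct7* and *Cct8*, beside 38.5% of the promoters of genes with a kept gene probe (37.5% of all). The letters TATAAA and the E-box CACGTG were in none of the 8 windows, and in 7.11% and 9.68% of those of genes with a kept gene probe. The heat shock element, searched as GAANNTTC followed by NNGAA, is the sequence that heat shock factor binds, and it was found for *Cct4* alone, beside 0.510% of the promoters of genes with a kept gene probe (0.798% of all). It lies 26 to 38 bases after the start and holds the shorter form GAANNTTC, which 5.51% of the promoters of genes with a kept gene probe hold. The 30 bases around it are given with the element in capitals, as it reads on the strand of the gene.
Cct4, chr14:101193074-101193103, plus strand: gcgtcgctTTCTGGAAGGTTCgtggaggcg
The 8 genes lie on 7 chromosomes of this build, *Cct3* and *Cct5* on 2, *Tcp1* on 1, *Cct7* on 4, *Cct2* on 7, *Cct8* on 11, *Cct6a* on 12 and *Cct4* on 14. The motif matches describe the letters of the windows and are not evidence of binding.

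The CCT subunits lay close to the control on all 4 CR arrays. The median log2 ratio of the 8 subunits to the control array, at the brighter gene probe of *Cct6a*, was −0.039, −0.036, −0.067 and −0.095 at 5, 10, 20 and 30% CR, where the median of all 7933 gene probes was 0.0048, 0.0059, −0.030 and 0.0012. In the mean of the 4 CR pools, 6 of the 8 subunits lay below the control, between −0.19 for *Cct2* and 0.15 for *Cct6a*, with a median of −0.058 (0.960-fold). Over all gene probes 50.9% lay below the control in that mean.

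When limma compared the 4 CR pools with the control, none of the 9 gene probes passed an adjusted p of 0.05 (0 higher and 0 lower, with adjusted p between 0.988 and 0.995), and over all gene probes 0% passed in either direction. At an unadjusted p of 0.05, 0 of the 9 passed, beside 2.71% of all gene probes higher and 2.05% lower; the smallest unadjusted p in limma was 0.187, for *Cct2*. The 95% intervals of the mean ratio bound what could have been missed: over the 8 brighter gene probes they ran from 0.718-fold (*Cct2*) to 1.37-fold (*Cct8*, *Cct6a*). The interval of the second *Cct6a* gene probe was wider, from 0.694-fold to 1.66-fold. The comparison has 3 residual degrees of freedom and takes the CR levels as replicates of each other. The lone control pool is taken to vary as they do. limma also draws the variance of each gene probe toward that of gene probes with similar signals. *Tcp1* had an SD of 0.028 (log2) over the 4 CR arrays, but a standard error of 0.12 for its mean ratio. A p-value thus rests on the spread among these pools over many gene probes, and not on the spread between rats.

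**Figure D1:**
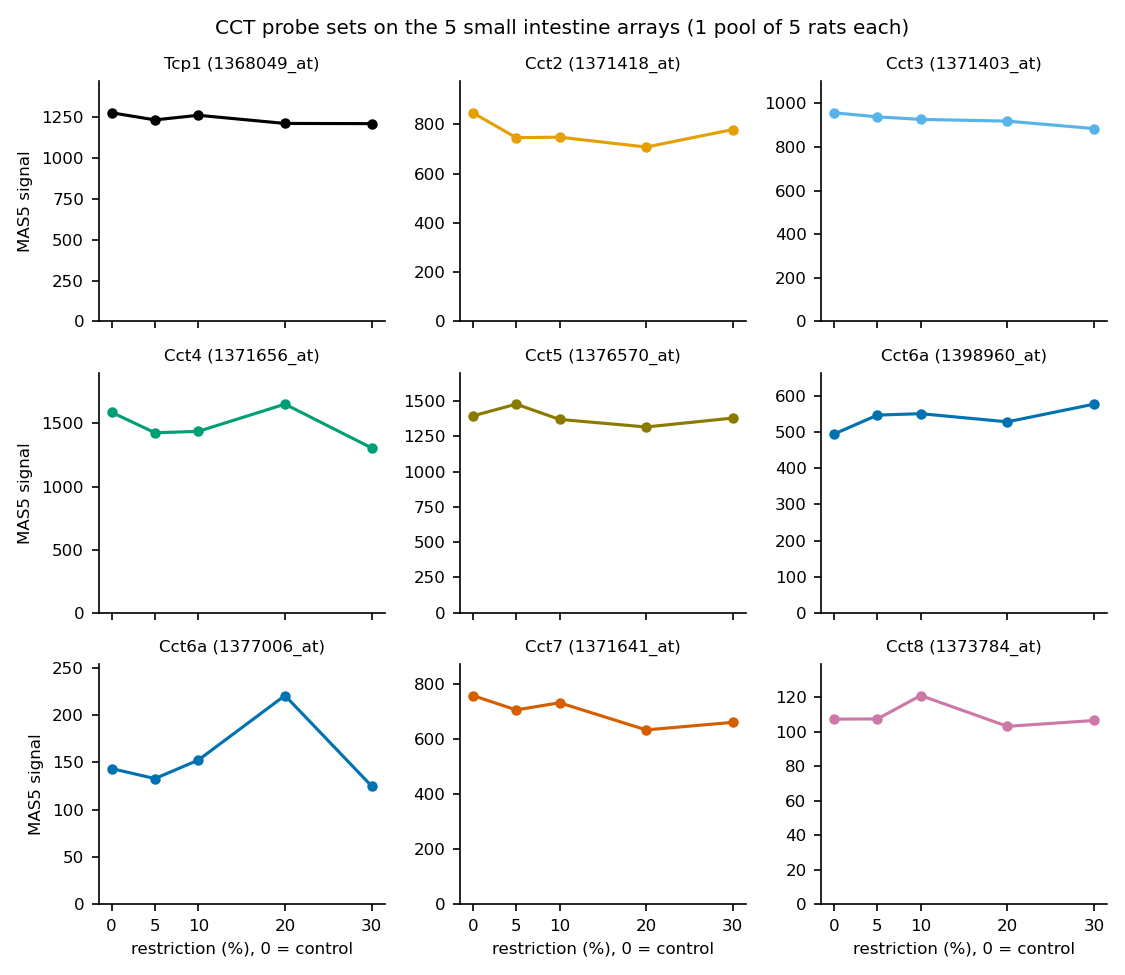
MAS5 signal (linear scale, from 0) of the 9 CCT gene probes against the restriction in percent, 0 being the control; each point is 1 array. The lines of *Tcp1* and *Cct3* are nearly level, and the second gene probe of *Cct6a* stands out with 221 at 20% CR.

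Of the subunits with the stronger ATP binding, *Cct2*, which has also been described as a receptor that brings protein aggregates to autophagy in mammalian cells (1371418_at), had a signal of 846.5 on the control array, then 745.5, 748, 707 and 778.5 at 5, 10, 20 and 30% CR. All 4 CR arrays lay below the control, lowest at 20% CR. Its mean log2 ratio was −0.19 ± 0.13 (standard error in limma, adjusted p = 0.988), the lowest of the 9.

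*Cct7*, the eta subunit (1371641_at), had 758 on the control array, then 706, 732, 633 and 661 at 5, 10, 20 and 30% CR. Here too each CR array lay below the control, with log2 ratios of −0.10, −0.051, −0.26 and −0.20, so the 2 milder levels lay nearer to the control than the 2 stronger ones. Its slope over the restriction percent was −0.073 ± 0.050 (log2 per 10% restriction, adjusted p = 0.998 in limma), and −0.12 without the 30% CR pool.

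*Cct4*, the delta subunit, in which the mutilated foot rat with its sensory neuropathy carries a mutation (1371656_at), had 1588 on the control array, then 1426, 1437, 1653 and 1306 at 5, 10, 20 and 30% CR. The 20% CR array was its highest of all 5 and the 30% CR array its lowest. Its log2 ratios were −0.16, −0.14, 0.058 and −0.28, a mean of −0.13 ± 0.15 (adjusted p = 0.988 in limma). Without the 30% CR pool that mean was −0.080 and the slope, −0.047 over all pools, was 0.048.

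*Cct5*, the epsilon subunit, in which mutations cause a sensory neuropathy in humans (1376570_at), had 1394 on the control array, then 1477, 1369, 1316 and 1379 at 5, 10, 20 and 30% CR. The control lay inside the span of the CR arrays, 5% CR being higher and the other 3 lower. The mean log2 ratio was −0.010 ± 0.13, the nearest to 0 of the 9, and without the 20% CR pool it was 0.014.

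Of the subunits with the weaker ATP binding, *Tcp1*, the alpha subunit after which the complex was first named (1368049_at), had 1277 on the control array, then 1234, 1262, 1212 and 1211 at 5, 10, 20 and 30% CR. All CR arrays lay below the control, but by log2 ratios of no more than −0.077, and the mean was −0.055 ± 0.12 (adjusted p = 0.989 in limma). The whole range over the 5 arrays was 0.077, and 0.391% of the 7933 gene probes had a smaller one.

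*Cct3*, the gamma subunit (1371403_at), had 957 on the control array, then 938, 927, 919 and 885 at 5, 10, 20 and 30% CR. Its signals came in the order of the restriction, each level below the one before, over a range of only 0.11 (log2). The slope was −0.034 ± 0.047 per 10% restriction (adjusted p = 0.998 in limma), smaller than its standard error.

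*Cct8*, the theta subunit, was measured by a weak gene probe (1373784_at) with 107 on the control array, then 108, 121, 103 and 107 at 5, 10, 20 and 30% CR. The control and 3 of the CR arrays were close together, and 10% CR was the highest. Its mean log2 ratio was 0.027 ± 0.19, and −0.022 without the 10% CR pool.

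*Cct6a*, the zeta subunit of most tissues, had 495 on the control array, then 548, 552, 529 and 578 at 5, 10, 20 and 30% CR at its brighter gene probe (1398960_at). It was the only one of the 9 with every CR array above the control, by log2 ratios of 0.15, 0.16, 0.095 and 0.22, a mean of 0.15 ± 0.13 (adjusted p = 0.988 in limma). Its second gene probe (1377006_at) had 143.5 on the control array, then 133, 152.5, 221 and 125 at 5, 10, 20 and 30% CR. That gene probe went both ways, with log2 ratios of −0.11, 0.088, 0.62 and −0.20, and 20% CR stood above the other 4 arrays. The pair thus disagreed in sign at 5 and 30% CR, and the array annotation names no accession for the second one. Its mean of 0.10 ± 0.28 became −0.074 without the 20% CR pool.

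**Figure D2:**
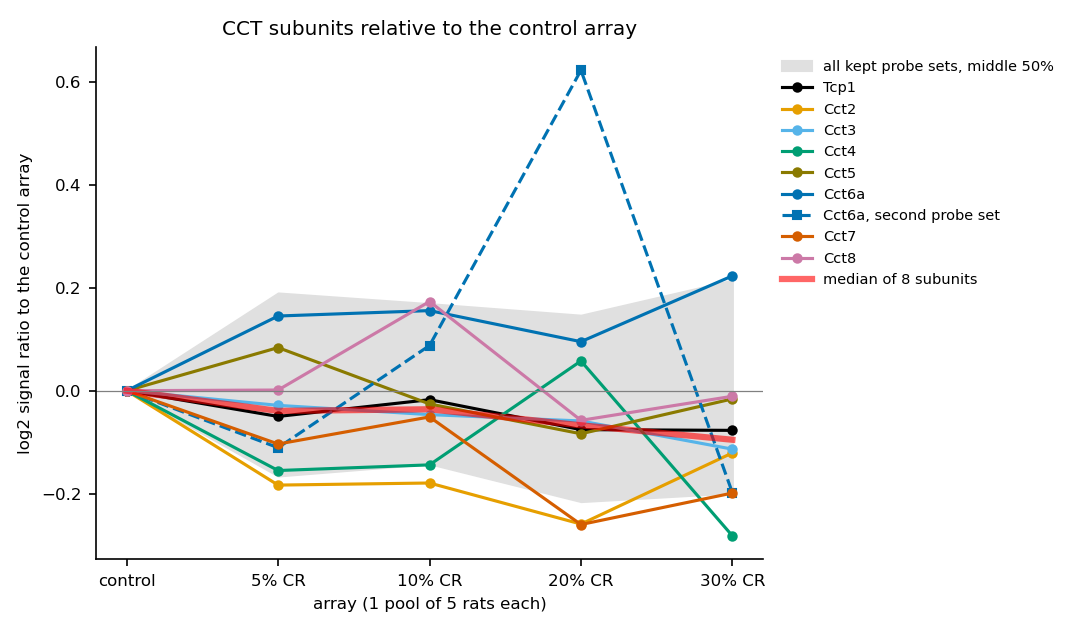
Log2 ratio of the signal to that of the control array for the 9 CCT gene probes on the control and the 4 CR arrays, in order of restriction with evenly spaced arrays; the control is 0 by definition. The thick red line is the median of the 8 subunits, from −0.036 to −0.095, and the grey band holds the middle 50% of all kept gene probes; several subunits leave the band at single levels, *Cct2* and *Cct7* with −0.26 at 20% CR among them, and the dashed line, the second gene probe of *Cct6a*, reaches 0.62 there.

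The 20% CR array also differed from the others in the ratio of the 3' to the 5' probe of beta-actin, which is raised when RNA is degraded and was 3.18 there, between 2.20 and 2.41 on the other 3 CR arrays, and 2.30 on the control array. The corresponding ratio of *Gapdh* was 1.27 at 20% CR, between 1.21 and 1.37 on the other CR arrays, and 1.40 on the control array. On the same array the epithelial markers stood highest, with a median log2 ratio of 0.52 for the 10 measured of 12 and a summed signal of 25849, where the other CR arrays had 19466 to 20337 and the control array 17226.5. That array was the lowest of the 5 for *Cct2*, *Cct5*, *Cct7* and *Cct8* and the highest for *Cct4* and the second *Cct6a* gene probe, and the part of these measures in its CCT values was not tested.

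The sizes of the differences were small at every level. A log2 ratio of at least 0.5 was reached at 1 level by 1 gene probe, the second gene probe of *Cct6a* at 20% CR, where 3.95% of all gene probes were higher by as much and 6.15% lower. At the other levels 0 of the 9 reached it, beside 5.62% higher and 3.84% lower at 5% CR, 4.73% and 3.45% at 10% CR, and 7.51% and 5.61% at 30% CR. A ratio of −0.25 or lower was reached by *Cct2* and *Cct7* at 20% CR (21.7% of all gene probes lower by as much and 14.8% higher) and by *Cct4* at 30% CR (20% lower and 21.6% higher). At 5 and 10% CR 0 of the 9 reached 0.25 in either direction, beside 19% of all gene probes higher and 16.4% lower at 5% CR and 16.7% and 13.9% at 10% CR. No gene probe of the complex was higher or lower by 0.5 at all 4 levels, beside 0.769% of all gene probes higher and 0.34% lower.

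By sign alone, 4 of the 9 gene probes, *Tcp1*, *Cct2*, *Cct3* and *Cct7*, lay below the control at all 4 levels, beside 20.6% of all gene probes, and 1, the brighter one of *Cct6a*, lay above it, beside 19%. The 4 ratios of a gene probe share 1 control array, so a control value that was high by chance gives the same sign at every level. The sign of *Cct3* and *Cct4* depends on the scaling: after quantile normalization 5 lay below at all levels, *Cct4* joining the others, and after median centring 3, without *Cct3*. At 30% CR, 7 of the 8 subunits lay below the control (49.8% of all gene probes), at 10 and 20% CR 6 (48.8% and 54.4%), and at 5% CR 5 (49%).

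**Figure D3:**
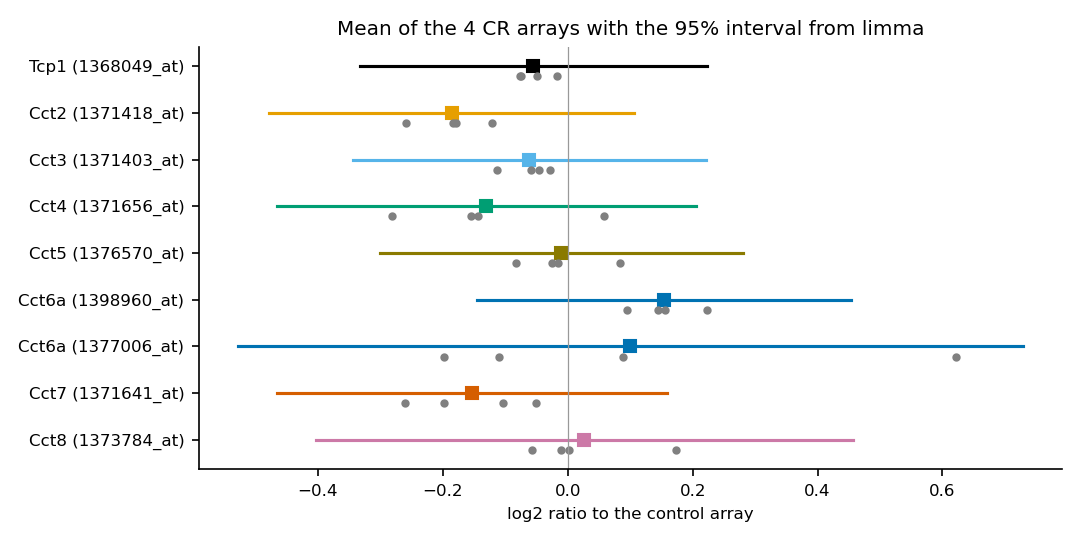
Mean log2 ratio of the 4 CR arrays to the control array for the 9 CCT gene probes (squares) with the 95% interval from limma (lines); the grey dots under each line are the 4 single levels. All 9 intervals hold 0, and the narrowest belongs to *Tcp1*, from −0.33 to 0.22.

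In the trend over the restriction percent, the 9 slopes ran from −0.073 for *Cct7* to 0.049 for the brighter *Cct6a* gene probe (log2 per 10% restriction). None passed limma (0 rising and 0 falling, every adjusted p = 0.998; over all gene probes 0% in either direction), and 0 of the 9 had an unadjusted p below 0.05, beside 1.55% of all gene probes rising and 1.54% falling. The slope of *Cct2*, −0.032 ± 0.053, was 0.015 without the control pool, that is over the 4 CR levels alone.

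The subunits had smaller ranges over the arrays than most gene probes. The range between the highest and the lowest log2 signal over the 5 arrays had a median of 0.23 over the 8 subunits, from 0.077 for *Tcp1* to 0.34 for *Cct4*. The median was 0.43 over all kept gene probes and 0.36 over the 3967 brighter ones of these, with a mean signal of at least 147. Each of the 8 subunits had a smaller range than the median of both sets. *Cct8*, with 107 on the control array, lies below that cut, and neither set was matched to the subunits in signal. After *Tcp1* the smallest ranges were those of *Cct3*, with 1.54% of the kept gene probes below it, and *Cct5*, with 5.47%. Strong signals vary less in MAS5, and among the brighter gene probes the shares were 0.555%, 2.32% and 8.65% for *Tcp1*, *Cct3* and *Cct5*. The second gene probe of *Cct6a* was the exception, with a range of 0.82 and 90.6% of the kept gene probes below it. Small differences were not particular to CCT. The mitochondrial list holds 5 genes, the chaperonin genes *Hspd1* and *Hspe1* with *Hspa9*, *Trap1* and *Clpp*. On the CR arrays these 5 had log2 ratios between −0.19 (*Trap1*) and 0.12 (*Clpp*). Those of the 8 subunits lay between −0.28 (*Cct4*) and 0.22 (*Cct6a*).

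**Figure D4:**
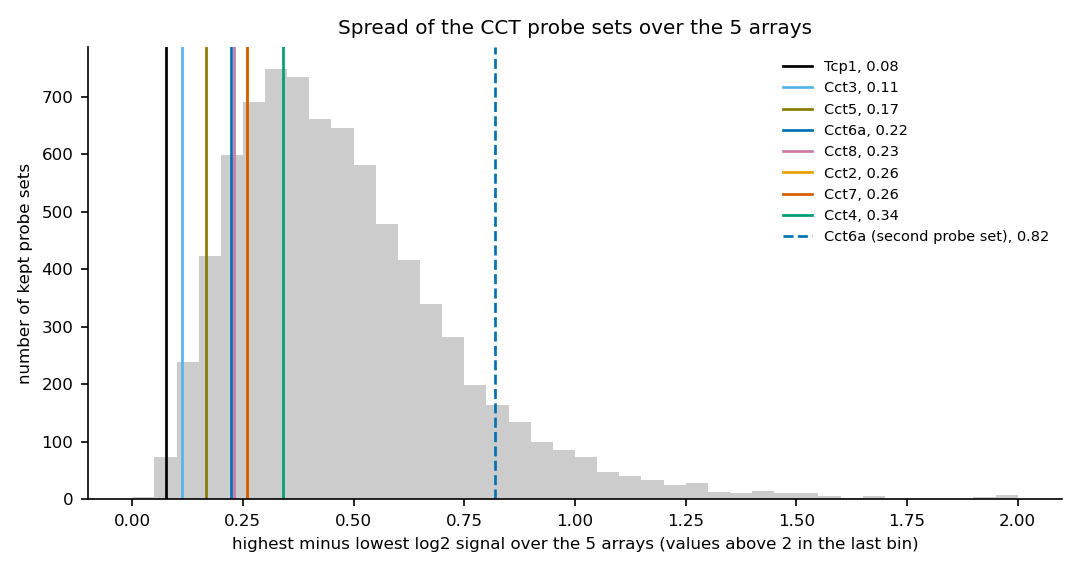
Number of kept gene probes by the difference between the highest and the lowest log2 signal over the 5 arrays (grey bars of 0.05), with a vertical line for each CCT gene probe. The 8 solid lines lie between 0.077 and 0.34, left of the median of 0.43, and the dashed line of the second *Cct6a* gene probe lies at 0.82.

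With *Cct6a* taken at its brighter gene probe, the subunits also spread little among themselves. The SD of the log2 ratio over these 8 was 0.11, 0.13, 0.13 and 0.15 at 5, 10, 20 and 30% CR. The SD over all kept gene probes was 0.30, 0.29, 0.32 and 0.34, and over the brighter ones 0.25, 0.22, 0.27 and 0.30. The second *Cct6a* gene probe, with a log2 ratio of 0.62 at 20% CR, is not part of the SD of the subunits. A small spread was not particular to CCT. The 5 genes of the mitochondrial list lay between −0.19 and 0.12 at 5% CR, where the subunits lay between −0.18 and 0.15. At 30% CR they lay between −0.17 and 0.024, and the subunits between −0.28 and 0.22. *Cct3* and *Tcp1* followed the median of the subunits most closely, with a root mean square difference of 0.013 and 0.015 (log2) over the 4 levels, and the brighter gene probe of *Cct6a* least, with 0.22. Each subunit takes part in that median, so a part of its closeness is built in.

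Among 6890 kept gene probes with 1 gene name outside the complex, the nearest to the subunit median over the 4 CR levels were *Erh*, *Pak2*, *Cdk2ap2*, *Tmem208* and *Cnn3*, with root mean square differences of 0.019 to 0.027 (log2). *Erh*, the enhancer of rudimentary homolog, had 1109.5 on the control array, then 1086, 1106, 1074 and 1040.5 at 5, 10, 20 and 30% CR. These are 5 of many gene probes with almost level signals over only 4 points, and the likeness is given as a description.

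Prefoldin takes actin and tubulin from the ribosome and passes them to CCT, and of its subunits and relatives 8 of 9 were measured. None passed limma over all gene probes in either direction. Of the mean ratios 2 were positive and 6 negative, and the median over the 8 was −0.066, −0.046, −0.058 and −0.064 at 5, 10, 20 and 30% CR. *Pfdn2* had the largest mean log2 ratio, 0.32 ± 0.17, with 200.5 on the control array, then 269, 230, 227 and 276 at 5, 10, 20 and 30% CR. All 4 CR arrays of *Pfdn2* lay above the control, and *Pfdn1*, another prefoldin subunit, lay below it at each level with a mean of −0.22 ± 0.16. *Pdrg1* and *Uxt*, members of the related prefoldin-like complex, had −0.15 and −0.12.

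The phosducin-like proteins bind CCT as cofactors, and 2 of 4 were measured. *Pdcl*, which helps to fold G protein beta subunits, had a mean log2 ratio of −0.29 ± 0.24 and lay below the control at all levels, and *Pdcl3* had 0.050 ± 0.14. The tubulin folding cofactors take tubulin over from CCT, and 4 of 6 were measured, with 3 positive means and 1 negative. *Tbce* had −0.25 ± 0.20, *Tbca* 0.11 ± 0.16, *Tbcd* 0.071 ± 0.19 and *Tbcb* 0.038 ± 0.17, and none of the 6 cofactors passed limma in either direction. *Mkks*, which codes for a chaperonin-like protein, was the only measured one of 5 listed Bardet-Biedl genes and had 0.040 ± 0.15.

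The actins and tubulins, the main substrates, had mean log2 ratios from −0.26 to 0.36. Of 10 measured genes of 18, the mean ratio was positive for 5 and negative for 5, 0 passed limma in either direction, and the median at 5, 10, 20 and 30% CR was 0.028, 0.065, −0.075 and 0.086. *Actg1*, cytoplasmic gamma-actin, had 3926 on the control array, then 3991, 4076, 3613 and 4323 at 5, 10, 20 and 30% CR, on both sides of the control. *Tubb4b* had a mean log2 ratio of −0.077 ± 0.13 and *Tubb2a* 0.065 ± 0.26, with *Tubb2a* above the control at 5 and 30% CR and below it at 10 and 20% CR. *Tubb2b* had the largest mean, 0.36 ± 0.25, and *Tubb6* the lowest, −0.26 ± 0.42, from 0.45 at 10% CR to −0.99 at 30% CR. *Tuba4a* and *Tubg1* had −0.12 and −0.11. Gene probes that the annotation assigns to several actins or alpha-tubulins were not used.

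Of the other substrates, WD repeat proteins, phosphatase subunits and a few more, 16 of 18 were measured, with 6 positive and 10 negative means and medians of 0.026, 0.065, −0.010 and −0.11 at 5, 10, 20 and 30% CR. *Stat3*, a transcription factor of cytokine signalling whose folding depends on CCT, stood apart with 475 on the control array, then 303, 318, 317 and 283 at 5, 10, 20 and 30% CR. All 4 CR arrays of *Stat3* lay below the control by at least 0.5 (log2), as did 0.34% of all gene probes. They lay close to each other, and their 4 ratios share 1 control array. The mean log2 ratio of *Stat3* was −0.64 ± 0.15 (adjusted p = 0.496 in limma), so it did not pass over all gene probes. Neither did any of the other 15 in either direction. The tumour suppressor *Vhl* had −0.32 ± 0.21, the phosphatase *Ppp4c* −0.26 ± 0.20 and *Cdc20*, an activator of mitotic protein breakdown, 0.25 ± 0.20.

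**Figure D5:**
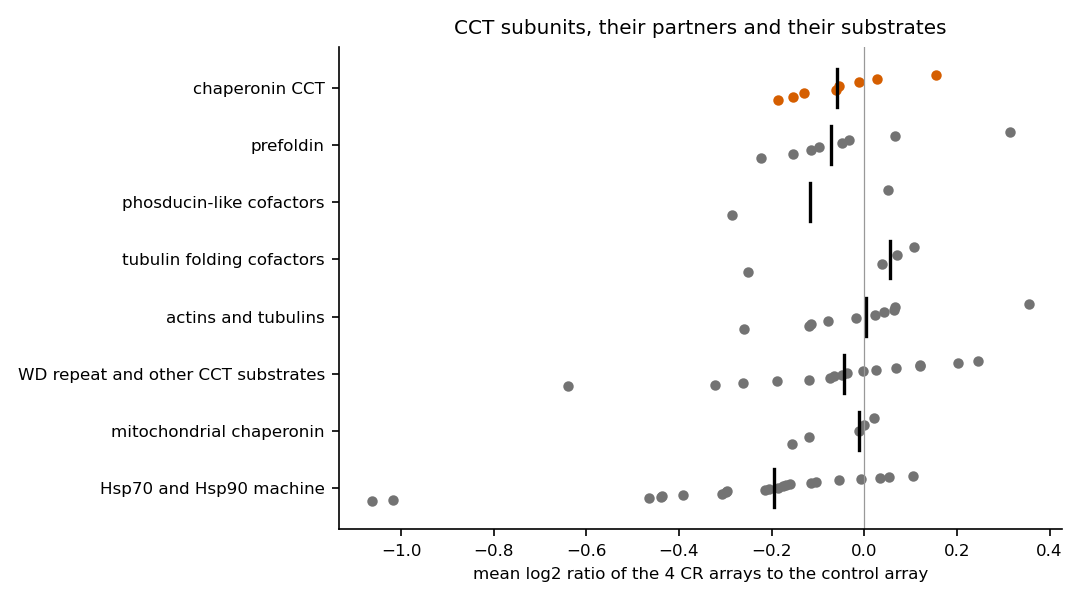
Mean log2 ratio of the 4 CR arrays to the control array for each measured gene of the complex (orange) and of 7 lists of partners, substrates and other chaperones (grey), with the median of each list as a black bar. The 8 CCT subunits lie between −0.19 and 0.15; the lowest points are *Stat3* among the substrates (−0.64) and *Hspa1a*, at 2 gene probes, in the Hsp70 and Hsp90 machine.

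Of the other chaperones none passed either. The mitochondrial chaperonin with other mitochondrial proteins, 5 of 5 measured, had a median mean ratio of −0.012. *Hspd1*, which forms the mitochondrial ring, had −0.012 ± 0.12 and its lid *Hspe1* −0.12 ± 0.13. *Trap1* had −0.16 ± 0.13 and the protease *Clpp* 0.021 ± 0.15. The Hsp70 and Hsp90 machine, which hands some substrates to CCT, had a median mean ratio of −0.20 over 22 gene probes of 21 measured genes, with 19 negative (50.9% of all gene probes), 3 positive and 0 passing limma in either direction. Of these, 10 lay below the control at all 4 levels (20.6% of all gene probes) and 2 by at least 0.5 at each (0.34%). The 2 are gene probes of the inducible Hsp70, *Hspa1a* with −1.02 ± 0.20 (adjusted p = 0.313 in limma) and the one shared by *Hspa1a* and *Hspa1b* with −1.06 ± 0.22 (adjusted p = 0.334 in limma). *Hsph1*, a nucleotide exchange factor of Hsp70, had −0.46 ± 0.14, *Stip1*, which links Hsp70 to Hsp90, −0.44 ± 0.22 and *Hsp90aa1*, an inducible Hsp90, −0.18 ± 0.16. *Cct2*, the lowest subunit of CCT, had −0.19 ± 0.13 and *Cct4*, the subunit whose window holds the heat shock element, had −0.13 ± 0.15, and whether CCT and the Hsp70 and Hsp90 machine differ as lists was not tested.

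The samples carried the markers of their tissue: 10 of 12 markers of small intestine epithelium were measured, among them *Fabp2*, *Si* and *Cdx2*. Their medians were 0.14, 0.063, 0.52 and 0.10 at 5, 10, 20 and 30% CR. Of the 10, 7 had a positive mean ratio and 3 a negative one, and 6 lay above the control at all levels (19% of all gene probes). The mean log2 ratio was 1.03 ± 0.16 for *Fabp2* (adjusted p = 0.183 in limma), 0.21 ± 0.16 for *Si* and −0.11 ± 0.13 for *Cdx2*. Markers of smooth muscle were all measured (10 of 10), with medians of −0.28, 0.14, −0.16 and −0.28 at 5, 10, 20 and 30% CR and summed signals of 11299 to 15305 on the CR arrays and 13987 on the control array. Of crypt proliferation genes 13 of 16 were measured (medians of 0.15, 0.13, 0 and 0.11; summed signals of 3883 to 4006 on the CR arrays and 3570.0 on the control array), and of lymphocyte genes 4 of 11 (medians of 0.15, 0.41, −0.020 and 0.10; summed signals of 4914 to 6086 on the CR arrays and 5338 on the control array). Most of that lymphocyte sum was *Cd74*, with 4205 on the control array and 3626 to 4815 on the CR arrays. Of the exocrine pancreas 1 of 12 was kept, *Cela1* (−0.52, 0.20, −0.051 and −0.22), and of red blood cells 1 of 5, *Hbb* (−0.31, 0.15, −0.20 and −0.72). No gene of these 6 lists passed limma in either direction. CCT is made in nearly all cell types, fewer cells of a type and less RNA per cell cannot be told apart in pooled tissue, and the part of the cell makeup in the subunit values was not tested.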

How the data were processed

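Total RNA of the small intestine was extracted, and a pool of complementary RNA from the 5 rats of each group was hybridized to 1 array. The deposited values are signal intensities on a linear scale that the authors computed with MAS5 (per the labels; GeneChip Operating Software in the paper's methods) and scaled to a common trimmed mean of 132 without the lowest and highest 2%. Because MAS5 subtracts the mismatch signal, weak signals give wide ratios, and the scaling hides differences in total RNA. The number of arrays limits the precision.

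After a floor of 0.1 the signals were log2-transformed. The array's 57 control probe sets were left out, and gene probes whose mean log2 signal reached the median, 5.54, were kept. Of the 15866 gene probes, the array annotation names 1 gene for 12783, more than 1 for 312 and none for 2771; 0 symbols differed from the current rat gene table. Several names were resolved only for *Hsp90aa1* and *Hspa1a*/*Hspa1b*, as printed in the paper. The CR pools were set against the control pool, and a slope over the restriction percent was fitted, with limma 3.58.1 in R 4.3.3 (lmFit, eBayes with trend; two-sided tests, p adjusted by Benjamini-Hochberg over all kept gene probes, threshold 0.05). For a gene with several gene probes, the one with the highest mean signal entered the lists. The fits were tested on simulated data with independent noise and changes larger than any mean ratio of CCT. That test checks the code and does not bear on changes as small as those of CCT.

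The members and the 15 lists were chosen with earlier results of these data known. The genes named are every CCT gene probe, of each list of partners, substrates or chaperones up to 4 with the largest mean ratio, list members that the paper names, and the 5 gene probes nearest to the subunit median. *Fabp2*, *Si*, *Cdx2* and *Cd74* were named after their values were seen. The lists are CCT, prefoldin, phosducin-like cofactors, tubulin folding cofactors, actins and tubulins, other substrates, and the mitochondrial chaperonin with other mitochondrial proteins. The rest are the Hsp70 and Hsp90 machine, Bardet-Biedl genes, and markers of epithelium, proliferation, lymphocytes, smooth muscle, pancreas and blood. The alternatives tried were median centring or quantile normalization, a constant of 13 added to the signals (their lower quartile), a stricter filter (quantile 0.75) or none, no intensity trend, the rank of the level, other sizes, other reference arrays, the mean of a subunit's gene probes and each pool left out.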

Additional observations from a re-analysis of the deposited data

How the results depend on the processing

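No CCT gene probe passed an adjusted p of 0.05 in limma under any alternative in either fit; the adjusted p of the 9 lay between 0.658 and 1.00 in the comparison with the control and between 0.634 and 1.00 in the trend. Over all gene probes the count passing was 0, and 0 to 3 when a CR pool was left out of the comparison (3 without 30% CR). At an unadjusted p of 0.05, 378 of all gene probes passed in the comparison, 806 without the filter, 164 with the stricter filter and 237 to 674 with a CR pool left out (lowest without 5% CR, highest without 20% CR). In the trend 245 passed, 582 without the filter, 128 with the stricter one, and with a pool left out 77 without the control, 459 without 5% CR, 497 without 20% CR and 504 without 30% CR. Among CCT this count was 0, and 1 in the trend without the 30% CR pool, the second *Cct6a* gene probe. The count of CCT gene probes past the size threshold at 20% CR, 1 at 0.5, was 3 at 0.25 and 0 at 1, and at 30% CR, 0 at 0.5, it was 1 at 0.25. The median of the subunits moved with the scaling, to −0.099 at 10% CR and −0.0043 at 20% CR after median centring, which shifts all gene probes of an array alike, and to −0.13 at 20% CR after quantile normalization. Its mean over the 4 other arrays was −0.059 against the control array, −0.015 and −0.024 with the 5 and 10% CR arrays as the reference, and 0.059 and 0.040 with the 20 and 30% CR arrays. With a pool left out, means of small size changed sign: *Cct5* ranged from −0.042 to 0.014, the second *Cct6a* gene probe from −0.074 to 0.20 and *Cct8* from −0.022 to 0.055, and slopes did so for *Cct2* (−0.11 to 0.015), *Cct4* (−0.080 to 0.048) and the second *Cct6a* gene probe (−0.060 without 20% CR to 0.34 without 30% CR). The slope of *Cct7* ranged from −0.12 to −0.058 and that of the brighter *Cct6a* gene probe from 0.022 to 0.061. The stricter filter dropped *Cct8*. No paired analysis was possible because each rat received a single diet. With 1 array per level, differences of the size seen here cannot be told from the spread between pools.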
